A study of Homo sapiens with 15 samples.

Results

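Aminoacyl-tRNA synthetases are the enzymes that load each amino acid onto its transfer RNA. The genes described here are 36 of the 47634 gene identifiers in each count table, chosen by name as the synthetases of the cytosol (20 genes, symbols without a suffix such as AARS) and of the mitochondria (16 genes, symbols ending in 2 such as AARS2). Newer annotation adds a 1 to the cytosolic symbols (AARS1). The transcripts were read from their 3′ ends with QuantSeq libraries of IGROV-CP20, a human ovarian cancer cell line selected for resistance to cisplatin, a platinum drug that damages DNA. The 5 conditions had 3 libraries each, labelled as biological replicates. Untreated cells received neither drug. Cisplatin was given at 50 µM for 24 h, either alone or following a 24 h exposure to 10 µM of Tranilast (an antiallergic drug), Telmisartan (an angiotensin receptor blocker) or Amphotericin B (an antifungal drug). All libraries come from a single line, no library received a drug without cisplatin, and the p-values below measure only the spread between these samples.

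The cytosol and the mitochondria each translate their own messages and each need charged transfer RNAs, and most amino acids have 1 nuclear gene for each compartment. GARS (glycine) and KARS (lysine) are exceptions, since a single gene of each supplies both compartments, and EPRS joins the glutamyl and prolyl activities in 1 protein. In the cytosol 8 of these genes (EPRS, IARS, LARS, QARS, MARS, KARS, RARS and DARS) encode members of the multisynthetase complex, which is held together by the scaffold proteins AIMP1, AIMP2 and EEF1E1. Many cytosolic synthetase genes are known targets of ATF4, the transcription factor of the integrated stress response, which raises amino acid supply and charging when amino acids run short. The 12 listed here as ATF4 targets from textbook knowledge are AARS, CARS, EPRS, GARS, IARS, LARS, MARS, NARS, SARS, TARS, WARS and YARS, and the other 8 cytosolic genes are DARS, FARSA, FARSB, HARS, KARS, QARS, RARS and VARS.

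Promoter sequences are shown first because the results below divide along this list. The list was chosen with earlier results of these data known, so the division is not independent of them. ATF4 with a C/EBP partner is known to bind an amino acid response element with the core TGATGCAA. Windows from 250 bases before to 50 bases after the RefSeq start (GRCh38.p14) were found for 30 of the 36 genes, and were searched on both strands for TGATGCAA, and for TGATGNAA, which includes it. TGATGCAA occurred in 6 of the 10 windows of listed ATF4 targets (60%), in 0 of 6 windows of other cytosolic synthetases and in 0 of 14 mitochondrial windows, against 252 of all 27305 windows (0.923%). TGATGNAA occurred in the same 6, in 0 of the other cytosolic windows and in 1 mitochondrial window, that of YARS2, against 3.67% of all windows. Knowledge of the ATF4 targets rests in part on this motif, so the share in the list is not independent evidence. A match describes letters only. The 6 matches are printed with 30 bases each on the strand of the gene, with the motif or its reverse complement in capitals.
AARS: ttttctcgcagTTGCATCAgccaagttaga
CARS: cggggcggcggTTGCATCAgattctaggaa
IARS: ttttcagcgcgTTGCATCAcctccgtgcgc
MARS: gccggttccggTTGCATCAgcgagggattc
NARS: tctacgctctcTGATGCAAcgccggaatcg
TARS: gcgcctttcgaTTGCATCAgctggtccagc
The printed bases lie at chr16:70289675-70289704 for AARS, chr11:3057407-3057436 for CARS and chr9:92293692-92293721 for IARS (all on the minus strand), at chr12:57488053-57488082 for MARS and chr5:33440956-33440985 for TARS (plus strand), and at chr18:57621804-57621833 for NARS (minus strand). The motif of AARS began 187 bases before the start, and those of CARS, IARS and MARS 2, 13 and 4 bases before it.

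Total counts ranged from 1510620 to 3517041 per library, and were lowest with Amphotericin B (at most 1872639). Mitochondrial ribosomal RNA took 1.79 to 2.20% of counts in untreated libraries and 2.10 to 2.53% with Tranilast, but 12.3 to 14.8% with Amphotericin B. It varied within cisplatin alone (13.7, 5.61 and 3.41% in replicates 1 to 3) and within Telmisartan (10.8, 12.9 and 3.61%), so that cisplatin replicate 1 and Telmisartan replicate 3 stood apart from the other libraries of their condition, and counts without them are given below. Replicates differed by more than counting error in every pair (chi-square of counts per degree of freedom from 1.87 to 29.3). Of the markers of the labelled cell type, the epithelial list summed to 147 to 252 CPM over all libraries and was led by KRT18, whereas the ovarian markers PAX8, WT1, MUC16 and MSLN were at or near 0 (summed level at most 3.21 CPM). Among leukocyte markers PTPRC was at 64.5 to 75.4 CPM in untreated libraries, 2.45 to 15.1 with cisplatin, 3.87 to 8.16 with Telmisartan, 6.70 to 22.1 with Tranilast and 9.96 to 12.8 with Amphotericin B, while CD3E was at 0 throughout, and the part of PTPRC-expressing cells in the results was not tested.

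Of the 36 genes, 35 passed the filter on low counts and were tested (20 of 20 cytosolic, 15 of 16 mitochondrial). VARS2, the mitochondrial valyl enzyme, had 15 counts over all libraries and was not tested. Levels below are CPM, the counts of a gene per 1000000 counts of its library, scaled with edgeR's TMM factors. Each molecule gives a tag close to its 3′ end, so CPM depend little on transcript length, were not divided by it, and order the genes only roughly. In untreated cells the cytosolic genes spanned from VARS at 8.61 ± 0.55 CPM (SD, n = 3) to TARS, the threonyl enzyme, at 873 ± 39.6 CPM. GARS (718 ± 15.7 CPM) and SARS (730 ± 25.1 CPM) lay next below TARS and did not differ from each other beyond their spread. Mitochondrial genes were lower, from MARS2 at 3.67 ± 1.29 CPM to TARS2 at 54.9 ± 2.15 CPM among those tested.

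The summed level of the listed ATF4 targets was lower with cisplatin, that of the other cytosolic genes overlapped the untreated range, and that of the mitochondrial genes was slightly lower. The 12 listed targets summed to 5306, 5375 and 5334 CPM in untreated libraries and to 2575, 1902 and 2695 CPM with cisplatin. Tranilast and cisplatin gave 3559, 4173 and 4011 CPM, Telmisartan and cisplatin 2502, 2392 and 3304 CPM, and Amphotericin B and cisplatin 2613, 2813 and 2152 CPM. The Tranilast libraries lay between the untreated and the cisplatin libraries without overlapping either. The 8 other cytosolic genes summed to 1265 ± 64.1 CPM untreated, 1245 ± 54.7 with cisplatin, 1352 ± 149 with Amphotericin B, 1224 ± 85.8 with Tranilast and 1239 ± 116 with Telmisartan, and these ranges overlapped. The 16 mitochondrial genes summed to 277 ± 1.35 CPM untreated and 234 ± 19.2 CPM with cisplatin, with no overlap between the libraries, and to 292 ± 29.5 CPM with Amphotericin B, 268 ± 10.4 CPM with Tranilast and 275 ± 21.3 CPM with Telmisartan. In bulk RNA a change in the make-up of the cells and a change in RNA per cell cannot be told apart.

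**Figure D1:**
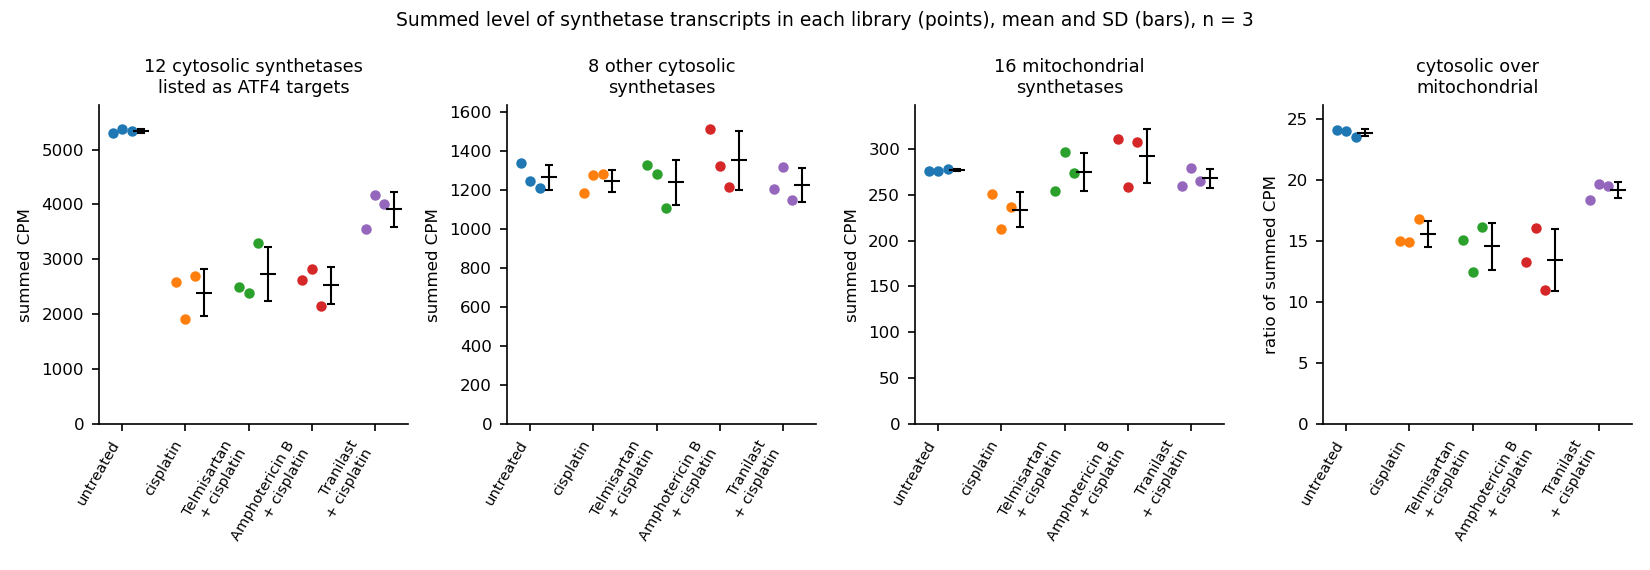
Summed level in CPM of 12 cytosolic synthetases listed as ATF4 targets, 8 other cytosolic and 16 mitochondrial synthetases in each of 15 libraries, and the ratio of all cytosolic to all mitochondrial CPM. Points are libraries, bars are mean and SD (n = 3); the listed targets sit at 5306 CPM or more in untreated cells, between 3559 and 4173 CPM with Tranilast and at or below 3304 CPM in the other treated libraries.

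The ratio of cytosolic to mitochondrial synthetase CPM does not depend on the scaling of a library. It was 24.06, 23.97 and 23.51 in untreated cells, 14.98, 14.92 and 16.76 with cisplatin, 13.27, 16.02 and 10.94 with Amphotericin B, 15.07, 12.39 and 16.11 with Telmisartan, and 18.36, 19.63 and 19.46 with Tranilast. Untreated and Tranilast libraries each lay above all cisplatin libraries, and an exact two-sided permutation test gave p = 0.1 for both differences, the smallest p that 3 against 3 libraries allow. Amphotericin B and Telmisartan overlapped cisplatin alone (exact permutation p = 0.3 and 0.6). As raw shares, cytosolic synthetases took 0.758 to 0.774% of counts in untreated cells and 0.270 to 0.426% with cisplatin. In the 6 libraries with at least 10.8% mitochondrial ribosomal RNA the share was 0.263 to 0.342%, and cisplatin replicate 2, with 5.61%, fell in the same range at 0.298%.

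Relative to untreated cells, cisplatin lowered 18 of the 35 tested synthetase genes (23.6% of all 11113 genes tested were lower) and raised 2 (21.1% of all genes). A gene was called where the Benjamini-Hochberg adjusted p of the quasi-likelihood test in edgeR was under 0.05. The libraries of 2 of the 35 lay wholly above (24% of all genes) and of 20 wholly below the untreated libraries (29.5%). All 12 listed ATF4 targets fell, with log2 fold changes from -1.87 to -0.56 and a median of -1.27, against a median of -0.01 over all genes, and in all 12 every cisplatin library lay below every untreated library. Of the other 8 cytosolic genes 2 fell and 2 rose, with a median of 0.20 that turned to -0.17 with scaling by library size only. Of the 15 mitochondrial genes 4 fell and 0 rose, with a median of -0.09. With the mitochondrial ribosomal RNA share as a covariate 6 fell and 2 rose, with a median of -0.13. Without untreated replicate 1 or cisplatin replicate 2 there was 1 lower, and without untreated replicate 2 or 3 or cisplatin replicate 3 there were 2. Without cisplatin replicate 1 the count was 17 lower and 1 higher, where 2781 of all 11332 genes were lower and 2347 higher. Scaling by library size only, which moved the median of all genes to -0.36, gave 20 lower and 0 higher. In that fit 3351 of all 11113 genes were lower and 1019 higher.

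AARS, the alanyl enzyme (chr16:70252295-70289543 in GENCODE 29, minus strand), showed the largest fall among the listed targets. It was at 489, 510 and 453 CPM in untreated libraries and at 118, 107 and 171 CPM with cisplatin, a log2 fold change of -1.87 ± 0.25 (SE, adjusted p = 2.48e-05). The groups were far apart, with the highest cisplatin library well under the lowest untreated one. EPRS (chr1:219968601-220046658, minus strand) went from 497, 510 and 500 CPM to 188, 105 and 168 CPM, a log2 fold change of -1.71 ± 0.21 (adjusted p = 1.39e-05). Its untreated libraries were within a few percent of each other and its cisplatin libraries were more spread out. LARS, the leucyl enzyme that is also known as a leucine sensor for mTORC1 (chr5:146113038-146182660, minus strand), went from 248, 239 and 237 CPM to 113, 79.5 and 64.3 CPM (-1.50 ± 0.19, adjusted p = 1.92e-05). GARS (chr7:30594681-30634033, plus strand) went from 719, 733 and 702 CPM to 295, 194 and 298 CPM (-1.45 ± 0.20, adjusted p = 3.07e-05). In CPM scaled with TMM factors, cisplatin replicate 2 or 3, rather than the high ribosomal RNA library replicate 1, held the lowest value in all 4 genes. Without these factors AARS was lowest in replicate 1 (211 of 2488037 counts, against 219 of 2171154 in replicate 2), while EPRS, LARS and GARS were not. The raw share of all cytosolic synthetases was also lowest in replicate 1 (0.270%, against 0.298 and 0.426% in replicates 2 and 3). The part of ribosomal RNA in these falls was not tested.

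WARS, the tryptophanyl enzyme, which interferon is also known to induce (chr14:100333788-100376805, minus strand), was at 238, 229 and 225 CPM untreated and at 129, 45.6 and 73.9 CPM with cisplatin. Its cisplatin values were widely spread but stayed below the untreated libraries (log2 fold change -1.48 ± 0.28, adjusted p = 0.000502). The remaining listed targets fell less, from CARS (cysteine, -1.32 ± 0.26), IARS (isoleucine, -1.22 ± 0.22) and TARS (-1.04 ± 0.20) through MARS (methionine, -0.99 ± 0.22), YARS (tyrosine, -0.84 ± 0.18) and SARS (serine, -0.75 ± 0.21) to NARS (asparagine, -0.56 ± 0.17). NARS alone among the 12 missed the threshold in 1 of 14 alternative fits, the one without cisplatin replicate 2, and the other 11 passed in all 14. The 3′ end of MARS overlaps DDIT3 on the opposite strand, a stress gene that itself fell (log2 fold change -1.78), and since the use of strand in counting is not given in the sources used here, reads of the pair cannot be told apart.

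**Figure D2:**
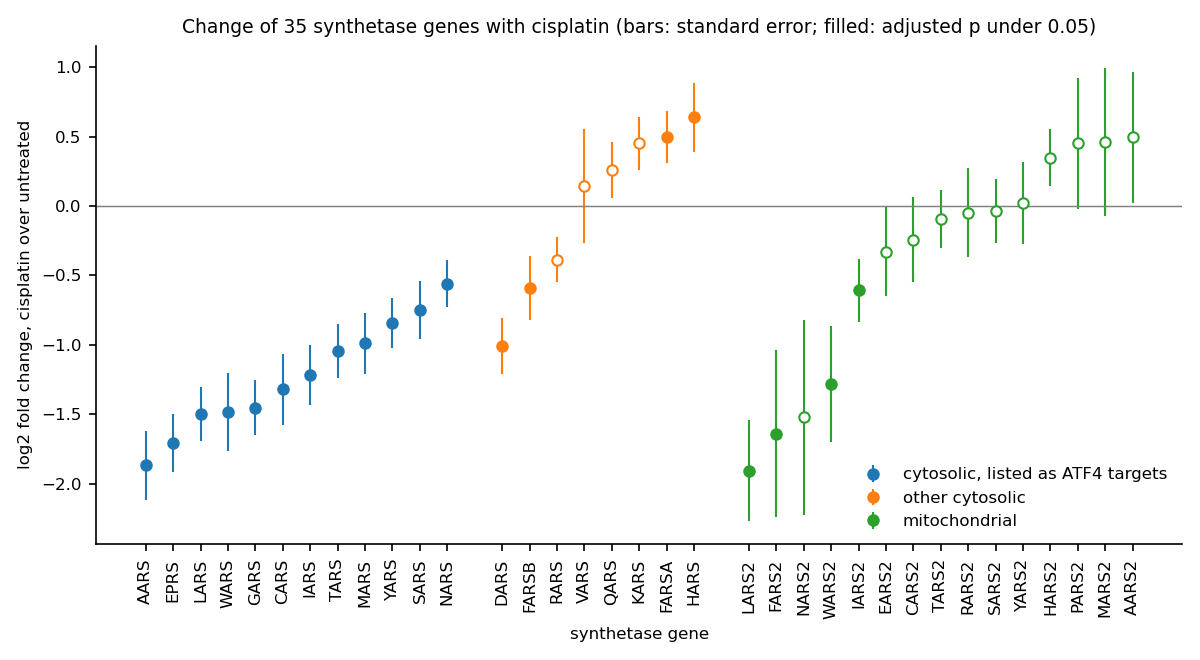
Log2 fold change of each of 35 tested synthetase genes, cisplatin over untreated, with standard error bars, for listed ATF4 targets, other cytosolic and mitochondrial genes. Filled points have an adjusted p under 0.05; all 12 listed targets are filled and below 0, while the other cytosolic genes run from -1.01 to 0.64.

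Among cytosolic genes outside the ATF4 list, DARS, the aspartyl enzyme, fell by 1.01 ± 0.20 on the log2 scale (adjusted p = 0.000754). FARSB, the beta subunit of the phenylalanyl enzyme, was at 67.6, 59.3 and 61.9 CPM untreated and 56.6, 37.8 and 31.8 CPM with cisplatin, and fell by 0.59 ± 0.23 (adjusted p = 0.0464). Its partner FARSA, the alpha subunit, rose by 0.50 ± 0.18 (adjusted p = 0.0354), from 347, 321 and 311 CPM to 334, 525 and 521 CPM. The 2 subunits thus moved in opposite directions in the same libraries, but the libraries of FARSA overlapped, and FARSA and FARSB missed the threshold in 8 and 9 of 14 alternative fits. KARS (chr16:75627474-75648643, minus strand) was at 195, 170 and 143 CPM untreated and 244, 237 and 216 CPM with cisplatin, without overlap, and did not pass (0.45 ± 0.19, adjusted p = 0.0613). RARS (-0.38 ± 0.16), QARS (0.26 ± 0.20) and VARS (0.14 ± 0.41) did not pass either. RARS was at 384, 347 and 354 CPM untreated and 260, 271 and 301 CPM with cisplatin, without overlap. Of the 8 synthetases of the multisynthetase complex 5 fell (EPRS, LARS, IARS, DARS and MARS) and KARS, QARS and RARS were not called, against 9 lower and 2 higher of the 12 cytosolic genes outside the complex. The 8 did not all move in 1 direction, since 6 log2 fold changes were negative and 2 positive. Libraries lay wholly below in 6 of the 8 (29.5% of all genes) and above in 1 (24%).

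HARS and HARS2, the cytosolic and mitochondrial histidyl enzymes, are adjacent genes transcribed in opposite directions from RefSeq starts 85 bases apart (chr5:140673904-140691862, minus strand, and chr5:140691426-140699318, plus strand), and their promoter windows share 184 bases. HARS was at 17.5, 20.1 and 22.1 CPM untreated and at 40.9, 27.0 and 26.2 CPM with cisplatin, and rose by 0.64 ± 0.25 on the log2 scale (adjusted p = 0.0430). HARS2 was at 23.6, 25.6 and 27.7 CPM and at 25.8, 36.3 and 35.7 CPM, and did not pass (0.35 ± 0.21, adjusted p = 0.178). The cisplatin libraries lay above the untreated ones for HARS and overlapped them for HARS2, and cisplatin replicate 1 was the highest of its group for HARS and the lowest for HARS2. The call of HARS was lost in 10 of 14 alternative fits, among them those without cisplatin replicate 1 and without replicate 2. Reads of both genes are uncertain, since the 3′ end of HARS overlaps WDR55 on the opposite strand and that of HARS2 overlaps ZMAT2 on its own strand, which held 26601 counts over all libraries against 1149 for HARS2.

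Of the mitochondrial genes, LARS2, the leucyl enzyme (chr3:45388506-45549421, plus strand), went from 12.1, 17.0 and 19.1 CPM to 6.16, 1.96 and 4.77 CPM and fell by 1.91 ± 0.36 on the log2 scale (adjusted p = 0.000532). It passed in all 14 alternative fits and fell together with its cytosolic counterpart LARS. WARS2 (-1.28 ± 0.42, adjusted p = 0.0191), IARS2 (-0.61 ± 0.23, adjusted p = 0.0389) and FARS2 (-1.64 ± 0.60, adjusted p = 0.0339) also fell, and missed the threshold in 4, 7 and 5 of 14 alternative fits. NARS2 was at 3.83, 5.47 and 4.84 CPM untreated and at 2.24, 2.94 and 0 CPM with cisplatin, and did not pass (adjusted p = 0.0847). The other 10 mitochondrial genes had log2 fold changes between -0.33 and 0.49, did not pass, and overlapped between the groups. YARS2 shares its 3′ end with DNM1L on the opposite strand (12359 counts against 451), so its value of 0.02 is uncertain.

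**Figure D3:**
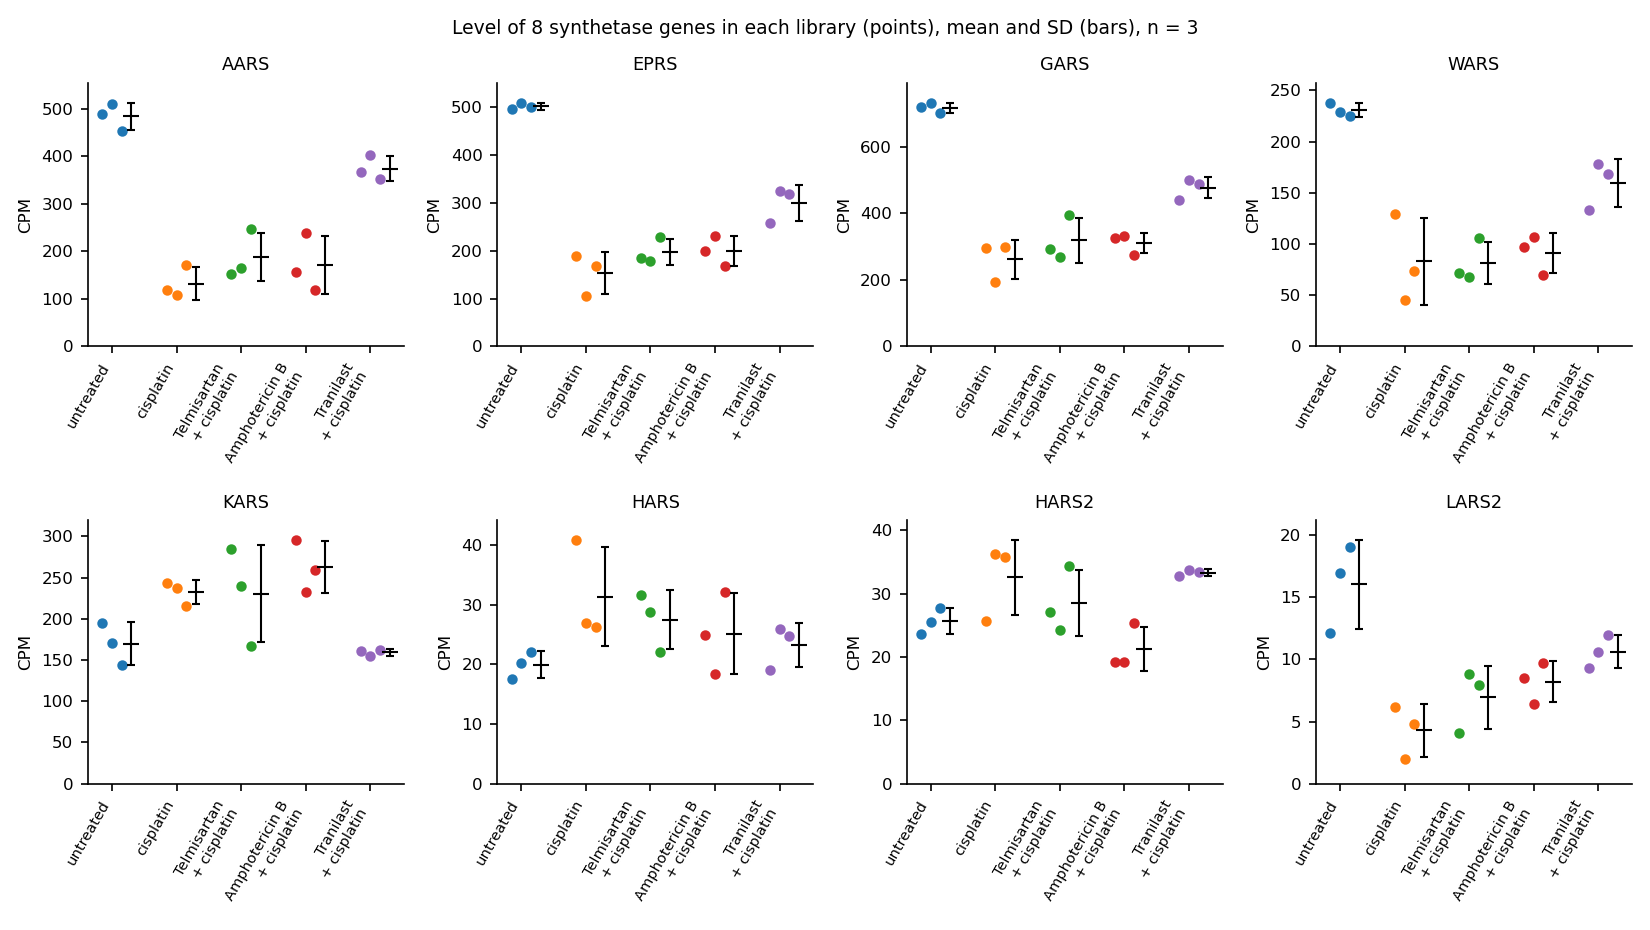
Level in CPM of 8 synthetase genes in each of 15 libraries by condition, with points for libraries and bars for mean and SD (n = 3). AARS, EPRS, GARS and WARS are highest in untreated cells and second highest with Tranilast, while KARS with Tranilast (155 to 162 CPM) sits below cisplatin alone (216 to 244 CPM).

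Tranilast and cisplatin were compared with cisplatin alone, at the same platinum dose. Mitochondrial ribosomal RNA separated these conditions (at most 2.53% against at least 3.41% of counts), and its part cannot be told apart from that of the drug. It likewise separated untreated cells (at most 2.20%) from cisplatin alone. With Tranilast 9 of 35 synthetase genes were higher (10.5% of all genes were higher) and 1 was lower (11.6% lower). The 9 were AARS, EPRS, GARS, TARS, CARS, LARS and WARS of the ATF4 list, DARS and the mitochondrial LARS2, and the 1 that fell was KARS. All 12 listed targets had positive log2 fold changes (0.32 to 1.50, median 0.72, against 0.02 over all genes) and in 10 of them the Tranilast libraries lay wholly above. Over the 35 genes 12 lay wholly above (21.4% of all genes) and 2 below (18.9%). The other 8 cytosolic genes had a median of -0.18, which turned to 0.25 with scaling by library size only, and the mitochondrial genes a median of 0.30. These counts rested on few libraries. Higher genes numbered 3 without cisplatin replicate 2, 3 without Tranilast replicate 3 and 4 without Tranilast replicate 2. Calls fell over all genes too, where 471, 525 and 605 were higher in these fits, compared with 1169 in the main fit. Without cisplatin replicate 1 there were 13, where 1423 of all 11332 genes were higher, and 0 were lower in each case. With the mitochondrial ribosomal RNA share as a covariate 12 were higher, 9 of them listed targets, and 0 lower, where 1383 of all 11113 genes were higher and 1528 lower. Scaling by library size only gave 18 higher and 0 lower, where 2582 of all 11113 genes were higher and 397 lower. It moved the median of all genes to 0.46.

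AARS rose most. Its libraries were at 367, 403 and 353 CPM with Tranilast, above the 118, 107 and 171 CPM of cisplatin alone, and the log2 fold change was 1.50 ± 0.25 (adjusted p = 0.00163). EPRS was at 258, 324 and 320 CPM, against 188, 105 and 168 CPM (0.97 ± 0.21, adjusted p = 0.00473). GARS was at 441, 501 and 488 CPM, against 295, 194 and 298 CPM (0.86 ± 0.20, adjusted p = 0.00633). These 3 genes passed in all 14 alternative fits, and in each the Tranilast libraries were tighter than those of cisplatin alone on the ratio scale. TARS (chr5:33440696-33469539, plus strand) was at 680, 720 and 713 CPM, against 371, 361 and 539 CPM (0.73 ± 0.19, adjusted p = 0.0134), and missed the threshold without cisplatin replicate 2 or Tranilast replicate 3. WARS was at 134, 178 and 168 CPM, all above the highest cisplatin library of 129 CPM, with a log2 fold change of 0.95 ± 0.28 (adjusted p = 0.0218). CARS (0.84 ± 0.25), LARS (0.70 ± 0.19), DARS (0.62 ± 0.20) and LARS2 (1.32 ± 0.38) rose with adjusted p from 0.0156 to 0.0344. WARS, CARS, LARS, DARS and LARS2 missed the threshold in 4, 4, 5, 7 and 3 of 14 alternative fits.

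KARS moved the other way. It was at 161, 155 and 162 CPM with Tranilast, below the 244, 237 and 216 CPM of cisplatin alone, and fell by 0.55 ± 0.19 on the log2 scale (adjusted p = 0.0478). The call was lost in 9 of 14 alternative fits, and scaling by library size only left a log2 fold change of -0.09. HARS (-0.42 ± 0.25) and HARS2 (0.03 ± 0.20) did not pass. IARS, YARS, NARS, MARS and SARS of the ATF4 list had log2 fold changes of 0.61, 0.40, 0.32, 0.50 and 0.42 and did not pass, with adjusted p from 0.0549 to 0.171.

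Between Amphotericin B and cisplatin and cisplatin alone, 1 of 35 genes rose (4.21% of all genes were higher) and 0 fell (9.01% lower), with 7 higher and 1 lower at an unadjusted p under 0.05 (31.6% of all genes in either direction) and 2 higher in DESeq2. Libraries lay wholly above in 4 genes (10.9% of all genes) and below in 2 (13.8%). The median of the listed ATF4 targets was 0.18 and that of the mitochondrial genes 0.54, against -0.04 over all genes. FARS2 (1.69), WARS2 (1.10) and LARS2 (0.94) had the largest positive log2 fold changes and did not pass (adjusted p = 0.0857, 0.115 and 0.141). SARS2, the mitochondrial seryl enzyme (chr19:38915266-38930896, minus strand), was at 44.8, 32.9 and 38.8 CPM, against 23.0, 30.9 and 16.7 CPM, without overlap, and rose by 0.73 ± 0.24 on the log2 scale (adjusted p = 0.0474). It missed the threshold in 8 of 14 alternative fits. Without cisplatin replicate 1, 9 synthetase genes were higher and 1 lower, where 1885 of all 11332 genes were higher and 1949 lower. The ribosomal RNA share of that library resembled that of the Amphotericin B libraries, and its part was not tested. Without cisplatin replicate 3, Amphotericin B replicate 1 or replicate 3 the count was 0.

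Telmisartan and cisplatin gave 0 calls of 35 against cisplatin alone in edgeR's quasi-likelihood test (0% of all genes were called), 2 higher at an unadjusted p under 0.05 (10.3% of all genes in either direction), and 0 in the likelihood ratio test and in DESeq2. Libraries lay wholly above in 1 gene (4.38% of all genes) and below in 0 (4.89%). IARS (chr9:92210207-92293756, minus strand) was at 42.9, 28.7 and 37.2 CPM, against 33.6, 17.7 and 27.4 CPM, with overlap (0.47 ± 0.22, adjusted p = 0.480). AARS was at 153, 166 and 247 CPM, against 118, 107 and 171 CPM, also with overlap (0.51 ± 0.24, adjusted p = 0.482). The 95% intervals of both differences reached from 0.00 to 0.94 and 1.02 on the log2 scale, so a rise of the size measured with Tranilast was within the interval for IARS and beyond it for AARS. Without cisplatin replicate 1 there was 1 call, where 301 of all 11332 genes were higher and 244 lower. Leaving out Telmisartan replicate 3, the library low in mitochondrial ribosomal RNA, gave 0.

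Tranilast and Amphotericin B were also compared directly, with the spread still estimated over all 15 libraries. With Tranilast 8 genes were higher than with Amphotericin B (19.7% of all genes were higher) and 2 lower (16.4% lower), of which 7 of the higher genes were listed ATF4 targets and 1 was HARS2. The listed targets had a median of 0.57, against 0.15 over all genes, and all 12 were positive. Libraries lay wholly above in 13 of the 35 genes (31.9% of all genes) and below in 5 (23.3%). AARS was at 367, 403 and 353 CPM with Tranilast and at 157, 239 and 119 CPM with Amphotericin B (1.12 ± 0.25, adjusted p = 0.00287). SARS (chr1:109213918-109238169, plus strand) was at 506, 617 and 619 CPM, against 351, 376 and 251 CPM (0.83 ± 0.21, adjusted p = 0.00672). Neither gene overlapped between the drugs. KARS was at 161, 155 and 162 CPM, against 296, 233 and 259 CPM, and was lower with Tranilast (-0.72 ± 0.19, adjusted p = 0.00838). HARS2 was at 32.7, 33.8 and 33.4 CPM, against 19.2, 19.2 and 25.3 CPM (0.65 ± 0.22, adjusted p = 0.0305), with the limit on its reads given above and the call lost in 9 of 14 alternative fits.

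These differences between Tranilast and Amphotericin B went with mitochondrial ribosomal RNA, which separated the 2 drugs completely (at most 2.53% against at least 12.3% of counts) and whose part cannot be told apart from that of the drug. With this share as a covariate 0 genes were higher and 0 lower, where 75 of all genes were higher and 11 lower, compared with 2186 and 1817 without it. The listed ATF4 targets then had a median of 0.49, against 0.57 without the covariate, and 11 of 12 were positive. Fitting the 6 Tranilast and Amphotericin B libraries alone gave 10 higher and 5 lower, where 2265 of 9933 genes were higher and 2566 lower. RLE factors gave 2 higher and 4 lower, where 1655 of all genes were higher and 2105 lower. Library size only gave 19 higher and 1 lower, where 5313 of all genes were higher and 763 lower, with a median of 0.81 over all genes. Without Tranilast replicate 2 or 3, 2 genes were higher, and without Amphotericin B replicate 1 or 3 there were 3. In these fits 1504, 1519, 1438 and 1254 of all genes were higher. Without Amphotericin B replicate 2, 4 were lower, where 1628 of all 11403 genes were lower.

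FARS2, the mitochondrial phenylalanyl enzyme (chr6:5261044-5829192, plus strand), differed widely between libraries. It was at 15.9, 14.1 and 13.0 CPM in untreated cells, 10.1, 2.45 and 1.99 CPM with cisplatin, 8.68, 12.7 and 0.826 CPM with Telmisartan, 2.23, 2.73 and 1.13 CPM with Tranilast and 13.5, 16.04 and 14.9 CPM with Amphotericin B. Among the treated libraries the 6 at 8.68 CPM or more were the 6 with at least 10.8% mitochondrial ribosomal RNA, and the 6 at or below 2.73 CPM had at most 5.61%, while the untreated libraries were high in FARS2 and low in that RNA. The log2 fold change of Tranilast over Amphotericin B was -2.88 ± 0.67 (adjusted p = 0.00416), and it turned to 0.33 with the ribosomal RNA share as a covariate.

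**Figure D4:**
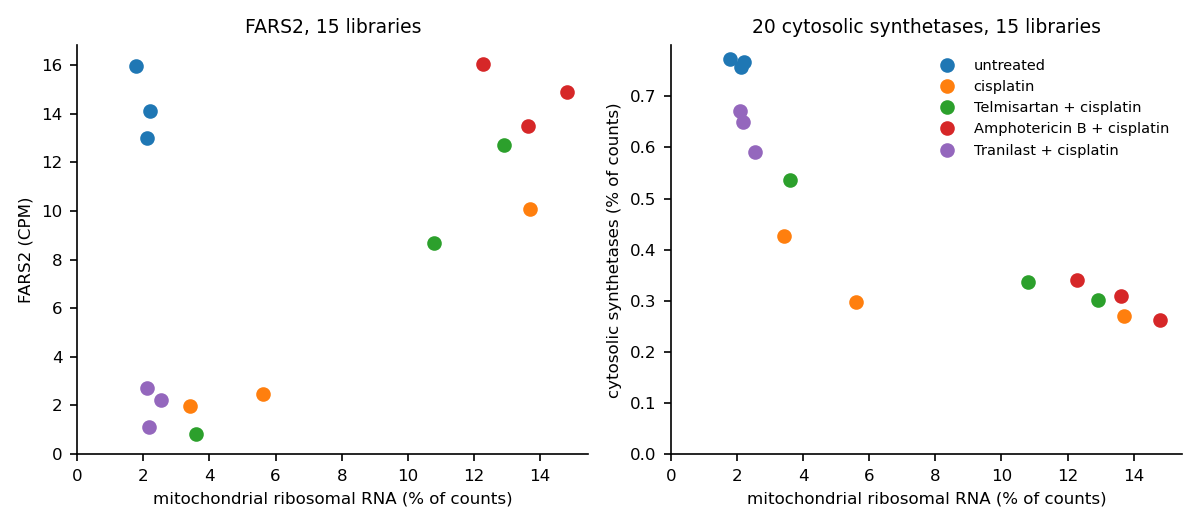
FARS2 in CPM (left) and the share of counts on 20 cytosolic synthetases in percent (right) against the share of counts on mitochondrial ribosomal RNA in percent, for 15 libraries coloured by condition. Treated libraries fall into a group with low FARS2 (at most 2.73 CPM) at a low ribosomal RNA share and a group with 8.68 CPM or more at a high share, and cytosolic shares are 0.263 to 0.342% in the 6 libraries with at least 10.8% ribosomal RNA.

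Against untreated cells the drug combinations are compared with the same 3 untreated libraries that cisplatin alone was compared with. With Amphotericin B 14 synthetase genes were lower (23.3% of all genes) and 2 higher (17.6%), and with Telmisartan 13 were lower (15.8%) and 0 higher (12.8%). The listed ATF4 targets made up 12 of the 14 and 11 of the 13, with medians of -1.13 and -1.02. With Amphotericin B 6 genes lay wholly above the untreated libraries (23.4% of all genes) and 15 below (35.3%), and with Telmisartan 1 above (18.4%) and 17 below (26.3%). Without Telmisartan replicate 3 the count for Telmisartan was 14 lower and 1 higher, where 2308 of all 11328 genes were lower and 1874 higher. DARS and LARS2 were the other genes that fell in both comparisons. KARS (0.63 ± 0.19, adjusted p = 0.0141) and SARS2 (0.70 ± 0.23, adjusted p = 0.0213) were higher with Amphotericin B than in untreated cells. Both calls were lost without untreated replicate 3, without Amphotericin B replicate 1, without a filter beyond 1 count and with scaling by library size only. Library size only gave 17 lower and 0 higher, where 4804 of all 11113 genes were lower and 887 higher. RLE factors gave 12 lower and 4 higher, where 2151 of all genes were lower and 2268 higher. LARS2 missed the threshold in 8 of 14 alternative fits with Amphotericin B.

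With Tranilast 3 genes were lower than in untreated cells (5.66% of all genes) and 0 higher (2.44%), and these were EPRS (-0.74 ± 0.20, adjusted p = 0.0297), LARS (-0.80 ± 0.19, adjusted p = 0.0115) and FARS2 (-2.83 ± 0.62, adjusted p = 0.00859). All 12 listed targets nevertheless had every Tranilast library below every untreated library and negative log2 fold changes, with a median of -0.48 against -0.01 over all genes. Over the 35 genes 6 lay wholly above (21.1% of all genes) and 17 below (25.1%). Fitting the 6 Tranilast and untreated libraries alone, which estimates the spread without the cisplatin and Telmisartan libraries, called 15 lower, of which 11 were listed targets, and 5 higher. Calls rose over all genes in that fit, where 2119 of 10965 genes were lower and 1869 higher. Without untreated replicate 1, Tranilast replicate 1 or Tranilast replicate 3 a single gene passed, and EPRS was lost whichever library was left out.

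**Figure D5:**
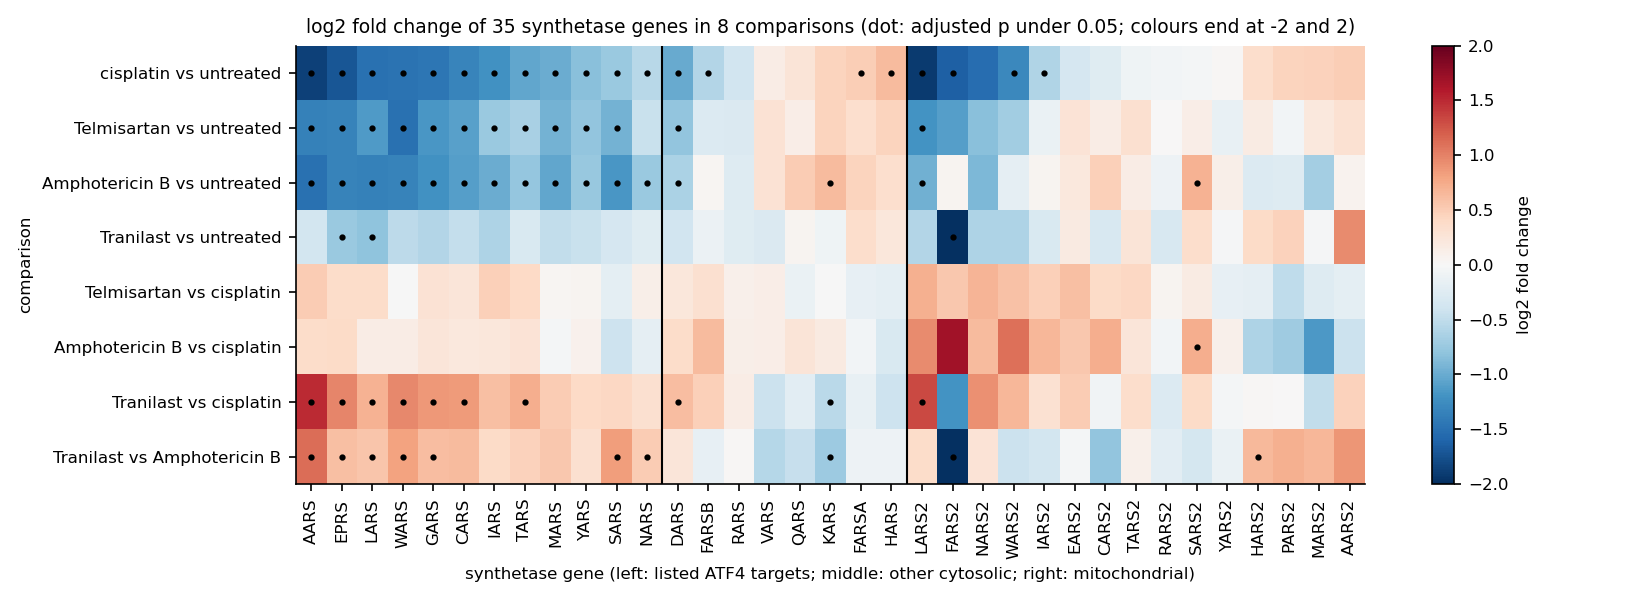
Log2 fold change of 35 synthetase genes (columns) in 8 comparisons (rows), in colour from -2 (blue) to 2 (red), with dots at an adjusted p under 0.05. The 12 listed ATF4 targets at the left are below 0 against untreated cells in all 4 treated conditions and above 0 in both Tranilast comparisons with treated cells.

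Genes known to act beside the synthetases showed the following counts. Of 10 ATF4 response genes 9 fell with cisplatin relative to untreated cells (23.6% of all genes), with a median of -1.55. ATF4 itself was at 1468, 1592 and 1640 CPM untreated and at 894, 591 and 1390 CPM with cisplatin (-0.71 ± 0.25, adjusted p = 0.0282). DDIT3 (the stress factor CHOP, -1.78 ± 0.27), CHAC1 (a glutathione-degrading enzyme, -2.08 ± 0.47), TRIB3 (a pseudokinase, -1.63 ± 0.35), ASNS (asparagine synthetase, -1.21 ± 0.24) and PSAT1 (serine synthesis, -1.47 ± 0.20) fell. So did PHGDH (serine synthesis, adjusted p = 0.000285), SESN2 (a leucine-binding stress protein, -1.65 ± 0.43) and SLC7A11 (the cystine transporter, -1.71 ± 0.35), while its partner subunit SLC3A2 did not pass (-0.19). In replicates 1 to 3 SESN2 was at 123, 111 and 298 CPM with cisplatin alone and at 168, 186 and 512 CPM with Telmisartan. CHAC1 was at 20.7, 10.8 and 62.0 CPM and at 39.3, 51.4 and 121 CPM. Both were highest in replicate 3, the library lowest in mitochondrial ribosomal RNA, but lower in cisplatin replicate 2 than in replicate 1. PHGDH was highest in cisplatin replicate 1 (129, 98.1 and 126 CPM). The part of that RNA in these changes was not tested. Relative to cisplatin alone, 8 of the 10 rose with Tranilast (10.5% of all genes, median 1.19), among them CHAC1 (2.31 ± 0.47) and DDIT3 (1.54 ± 0.27). With Amphotericin B 1 (DDIT3) rose (4.21% of all genes), but 7 of the 10 log2 fold changes were negative, with a median of -0.33. At an unadjusted p under 0.05, 2 were higher and 2 lower with Amphotericin B (31.6% of all genes in either direction). With Telmisartan 0 passed, 2 were higher at an unadjusted p under 0.05 (10.3% of all genes in either direction), and the median was 0.40. CHAC1 was at 144, 178 and 153 CPM with Tranilast, above its 137, 137 and 129 CPM in untreated cells. Against untreated cells, Tranilast gave 4 response genes with positive and 6 with negative log2 fold changes, and 0 were called (2 lower at an unadjusted p under 0.05).

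The scaffold genes AIMP1, AIMP2 and EEF1E1 were not called in any of the 8 comparisons, none had an unadjusted p under 0.05, and their log2 fold changes with cisplatin lay between -0.24 and 0.11. None of the 4 mitochondrial charging partners (QRSL1, GATB, GATC and MTFMT, which complete glutaminyl and formylmethionyl transfer RNA) was called with cisplatin in edgeR's test, and 1 (MTFMT) had an unadjusted p under 0.05. Relative to cisplatin alone, 1 of the 4 was higher with Tranilast (10.5% of all genes) and 1 lower with Amphotericin B (-1.42, 9.01% of all genes). Against untreated cells 1 was higher with Amphotericin B (17.6% of all genes). Of 8 elongation factors that take charged transfer RNA or move the ribosome, EEF1B2 (0.80 ± 0.26) and EEF1D (1.15 ± 0.28), subunits of the exchange factor that recharges EEF1A1, rose with cisplatin (21.1% of all genes were higher). GFM1, the mitochondrial translocation factor, fell (-0.93 ± 0.17, 23.6% of all genes were lower). EEF1B2 was at 2123, 1403 and 1282 CPM and EEF1D at 1074, 779 and 519 CPM in cisplatin replicates 1 to 3, in the order of their mitochondrial ribosomal RNA, and in Telmisartan replicates 1, 2 and 3 EEF1B2 was at 1681, 1655 and 788 CPM. The part of that RNA in these changes was not tested. For Tranilast over cisplatin alone, which shares the cisplatin libraries, the log2 fold changes were -0.95, -0.94 and 0.51 and each passed (10.5% of all genes were higher and 11.6% lower). With Amphotericin B 5 of the 8 elongation factors were higher than in untreated cells (17.6% of all genes) and 0 lower (23.3%). With Tranilast 5 were lower than with Amphotericin B (16.4% of all genes) and 0 higher (19.7%). Among 10 genes of transfer RNA maturation and export, TRMU (1.24 ± 0.23), PUS1 (1.21 ± 0.24), TRMT1 (0.76 ± 0.25) and ELAC2 (0.53 ± 0.16) rose with cisplatin and MTO1 (-0.92 ± 0.30) and NSUN2 (-0.59 ± 0.16) fell, against 21.1% of all genes higher and 23.6% lower.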

How the data were processed

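RNA of 15 libraries (100 ng each, reads of 75 bp) was sequenced by the study. The authors deposited whole-number read counts for Ensembl genes, neither normalized nor filtered. The submitters' processing notes list STAR 2.3.0, HTSeq and hg19, and the annotation and the use of strand are not given in the sources used here. Names and positions come from GENCODE 29 (GRCh38), which holds 45776 of the identifiers, and no read was mapped anew. PECAM1, a marker on the lists, was not matched, and 1 leukocyte marker is not reported here.

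The counts were fitted with edgeR 4.0.16 in R 4.3.3 (filterByExpr, TMM factors, quasi-likelihood test) on all 15 libraries, with a term for each condition. The p was adjusted by Benjamini-Hochberg over 11113 genes per comparison with a threshold of 0.05. SE was taken as |log2 fold change| / sqrt(F). Intervals are 95%. A floor of 3 counts stands for at most 0.000199% of a library, and covers counting error only. Alternatives were the likelihood ratio test, DESeq2 1.42.0, RLE factors, library size only, no filter beyond 1 count (24733 genes), only 6 libraries, a replicate block, mitochondrial ribosomal RNA as covariate, and each library left out. On simulated data for cisplatin against untreated cells (10790 genes) 181 of 200 genes changed by a log2 value of 2 were found, with 8 false calls. Figures used Python 3.11.15 and matplotlib 3.10.9.

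The members and lists were chosen with earlier results of these data known. Values per library are given for the 4 called members with the smallest adjusted p in each of 5 comparisons (the 2 smallest where none was called), for EPRS, GARS, KARS, WARS, HARS and HARS2 by role, and for others chosen after their values were seen (FARSA, FARSB, LARS2, NARS2).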

Additional observations from a re-analysis of the deposited data

How the results depend on the processing

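Depth limits the mitochondrial genes most, since several had fewer than 10 CPM, and 3 libraries per condition limit all calls. For cisplatin against untreated cells, 0 members were higher with library size only, without a filter or in the 6 libraries alone, and leaving out each library gave 0 to 1 higher and 13 to 17 lower. For Tranilast against cisplatin, library size only gave 18 and the 6 libraries alone 5 higher, and leaving out each library gave 3 to 13 higher. Over all genes, 2582 and 813 were higher in the first 2 of these fits, and 471 to 1423 with each library left out. KARS was not lower (0 lower) with library size only, without a filter, with the ribosomal RNA covariate or without any library (0 to 0). For Amphotericin B against cisplatin, the likelihood ratio test and DESeq2 each gave 2 higher, all mitochondrial. The covariate also gave 2 higher, but these were listed ATF4 targets, with 0 mitochondrial genes, so SARS2 was not among them. Library size only and the 6 libraries alone gave 0, and leaving out each library gave 0 to 9 higher and 0 to 1 lower. For Telmisartan against cisplatin, leaving out each library gave 0 to 1 higher.

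For Tranilast against Amphotericin B, higher members numbered 4 in DESeq2, 2 with RLE factors, 19 with library size only, 0 with the covariate and 2 to 7 with each library left out. Lower members numbered 4 in DESeq2 and with RLE factors, 1 with library size only, 5 in the 6 libraries alone, 0 with the covariate and 2 to 4 with each library left out. Over all 11113 genes, 1758 were higher in DESeq2, 1655 with RLE factors, 5313 with library size only and 75 with the covariate. In the same order, 2202, 2105, 763 and 11 were lower. FARS2 turned from -2.88 to 0.33 with the covariate, and the cause was not tested. For Tranilast against untreated cells, the likelihood ratio test and DESeq2 called 5, library size only 1, the 6 libraries alone 20, the covariate 8 and leaving out each library 1 to 2.

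With the replicate block the counts were 2 higher and 18 lower, 9 and 1, 1 and 0, 0 and 0, and 8 and 2 in the 5 comparisons, as without it, although HARS was not among the 2 higher. The numbers do not pair the libraries: deviations from the condition means correlated at 0.0200 on average for equal numbers and -0.0115 for others, 3 of 30 pairs exceeded 0.1, and 4 of 15 libraries correlated best with their own number. Of 182 values of these counts under alternatives, 126 kept within 1.5 times the count given and 56 did not.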
